A study of Mus musculus with 8 samples.

Results

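The protein phosphatase genes were taken from the 3 deposited transcript tables by gene name, as PP1 to PP6 subunits (Ppp1 to Ppp6), metal-dependent phosphatases (Ppm1), non-receptor tyrosine phosphatases (Ptpn), dual-specificity phosphatases (Dusp) and striatins (Strn). This gave 171 of 19077 distinct transcripts, from 102 of 12200 gene names. The RNA came from testes of Tdrd6-/- and Tdrd6+/- mice, 4 libraries of each genotype, on the C57BL/6 background and 26 days old. Both genotypes carry the targeted Tdrd6 allele with an hCD4 reporter, so that the cells could be collected through hCD4 with magnetic beads, and the Tdrd6+/- animals are heterozygous carriers and not wild type. The preparations are enriched for round spermatids and are not pure. The tables hold 1 pooled FPKM per genotype (reads scaled to the length of the transcript and the depth of the library, estimated per transcript), so no spread between animals can be given and no difference below was tested. A transcript is called higher or lower where the genotypes are at least 1.5-fold apart and the mean of their FPKM is at least 1. Ratios are log2 of Tdrd6-/- over Tdrd6+/- after 0.1 was added to each FPKM, which understates the difference of transcripts near the filter.

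Protein phosphatases remove phosphate from serine and threonine (the PPP and PPM families) or from tyrosine (PTPN), and dual-specificity phosphatases act on both. PP1 and PP2A have few catalytic subunits and many regulatory subunits, which bring the enzyme to its substrates or inhibit it. Calcineurin, or PP3, is switched on by calcium and calmodulin. Spermatids use germ-cell forms of several of these enzymes: Ppp1cc gives PP1 gamma2, the main PP1 of sperm, and Ppp3cc and Ppp3r2 give the calcineurin of sperm. TDRD6 is a protein of the chromatoid body, the RNA-rich granule of round spermatids.

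The targeted gene was read first. The 3 listed Tdrd6 transcripts had 1.29, 0.174 and 0 FPKM in Tdrd6-/- cells, against 40.6, 16.0 and 0.540 FPKM in Tdrd6+/- cells, in the direction of the labels. Of the 22 listed transcripts of late spermatid markers, from 14 of 15 genes, 13 were called lower in Tdrd6-/- cells (59.1%) and none higher. Over all transcripts past the filter, 8.78% were called lower and 7.96% higher. The FPKM of the late spermatid markers summed to 7422 in Tdrd6-/- and 23184 in Tdrd6+/- cells. Of 31 transcripts of round spermatid and acrosome markers past the filter, 9 were called lower (29%) and 1 higher (3.23%). Their sums over all 34 listed were 3283 and 4323 FPKM in Tdrd6-/- and Tdrd6+/- cells. Pachytene and diplotene spermatocyte markers had 2 called higher and none lower of 20 (median log2 ratio 0.12), those of early meiotic prophase 1 higher and 2 lower of 20 (0.06), and those of spermatogonia none of 5 (0.02). The FPKM of the pachytene and diplotene markers summed to 7497 in Tdrd6-/- and 9004 in Tdrd6+/- cells. Early meiotic prophase markers summed to 1150 and 1315 FPKM, and spermatogonia markers to 39.74 and 39.67 FPKM. All listed transcripts summed to 494391 and 595632 FPKM in Tdrd6-/- and Tdrd6+/- cells. The FPKM sums of the Sertoli, Leydig, peritubular and vascular, and blood marker lists were between 5.79 and 70.8 in Tdrd6-/- cells. In Tdrd6+/- cells they were between 4.79 and 79.5. Listed were 10 of 14 Sertoli, 8 of 9 Leydig, 3 of 9 peritubular and vascular and 3 of 11 blood marker genes. The rest have no value here. In such preparations fewer cells of a type and less RNA per cell cannot be told apart, and the part of the late spermatid markers' shift in the phosphatase values was not tested.

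Most phosphatase transcripts were close in the 2 genotypes. Of the 171, 140 from 93 genes passed the filter. Of these, 8 were called higher (5.71%) and 17 lower (12.1%) in Tdrd6-/- cells, and 115 were neither. Over all 14887 transcripts past the filter, 7.96% were called higher and 8.78% lower. The median log2 ratio was 0.03 over the phosphatase transcripts and 0.00 over all transcripts. With a mean FPKM of at least 5 the calls were 3 higher and 6 lower among 93 phosphatase transcripts (3.23% and 6.45%, against 4.45% and 8.07% of all), so the share called lower lay above the background at the lower filter and below it at the higher one. Of the 17 called lower, 4 had under 1 FPKM in Tdrd6-/- cells and passed only through their Tdrd6+/- value, and none of the 8 called higher had under 1 FPKM in Tdrd6+/- cells. Of the 31 transcripts under the filter, 9 were at least 1.5-fold higher and 7 at least 1.5-fold lower, all with a mean under 1 FPKM.

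**Figure D1:**
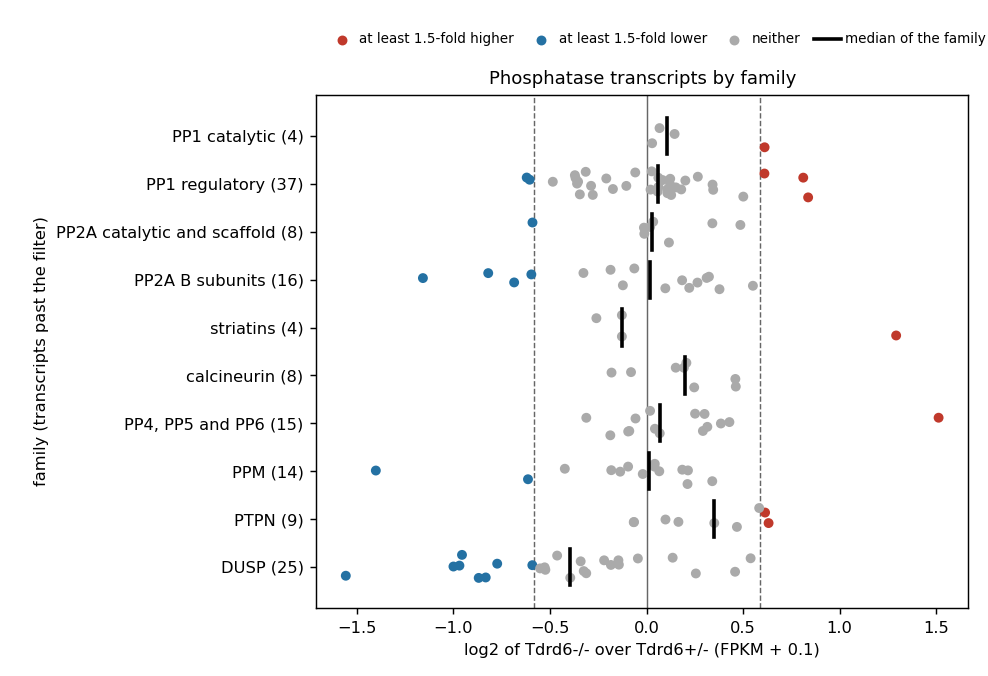
Log2 ratio of Tdrd6-/- over Tdrd6+/- FPKM (x axis, 0.1 added to both) for the 140 phosphatase transcripts past the filter, by family. Points are transcripts, black bars are family medians, and dashed lines mark 1.5-fold. The DUSP family has its median at -0.39 and holds 8 of the 17 transcripts called lower.

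The most abundant phosphatase transcripts include those of PP1 inhibitors and of germ-cell forms, and none with a mean of at least 100 FPKM was called. These were 12 transcripts, of which 10 were on the lower side in Tdrd6-/- cells. How many of all transcripts at that level lay on that side was not counted. The FPKM of all listed transcripts summed to 494391 in Tdrd6-/- and 595632 in Tdrd6+/- cells. Ppp1r11, inhibitor 3 of PP1, has the most abundant of the 12, on chromosome 17. It had 1510 FPKM in Tdrd6-/- and 1953 FPKM in Tdrd6+/- cells (log2 ratio -0.37), which ranks it 18 among all listed transcripts. A longer Ppp1r11 transcript, with a 3' UTR of 996 nt in place of 62 nt, had 127 and 158 FPKM in Tdrd6-/- and Tdrd6+/- cells. Ppm1g, a PP2C-type enzyme that works with the splicing machinery, had 318 FPKM in Tdrd6-/- and 280.0 FPKM in Tdrd6+/- cells (0.19). Ppm1g and Ppp1cc were the exceptions that lay on the higher side.
Ppp1r32 had 203 against 259.5 FPKM in Tdrd6-/- and Tdrd6+/- cells, and Ppp1r36, which binds PP1, had 151 against 170.5 FPKM. Ppp1r14b, an inhibitor of PP1, had 114 FPKM in Tdrd6-/- and 159 FPKM in Tdrd6+/- cells, the largest gap of these after Dusp13 (log2 ratio -0.49). Ppm1d, the Wip1 phosphatase that acts on p53 and on phosphorylated H2AX, had 128 and 136 FPKM. All of these lie within 1.5-fold.

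Among the PP1 catalytic subunits, Ppp1cc was the most abundant. It has a pair of listed transcripts that share their first 943 coding bases and end differently. The last 30 coding bases are shown because they set the forms apart, with the stop codon in capitals. Both are on the plus strand of mm9, at chr5:122625030-122625059 for ENSMUST00000086294 (coding length 1014 nt, 8 exons) and at chr5:122624124-122624153 for ENSMUST00000102528 (972 nt, 7 exons).
Ppp1cc ENSMUST00000086294: tatagaaacaacactgtcctatacgagTGA
Ppp1cc ENSMUST00000102528: ggtatgatcacaaagcaagcaaagaaaTAG
The longer coding sequence is that of the testis form gamma2 and the shorter that of the widespread form gamma1. The gamma2 transcript had 208 FPKM in Tdrd6-/- and 198.5 FPKM in Tdrd6+/- cells (log2 ratio 0.07), and the gamma1 transcript had 9.16 and 8.27 FPKM (0.15). Both transcripts were close in the 2 genotypes, and the gamma2 transcript was the more abundant in each. Ppp1ca, the alpha subunit, summed to 4.85 FPKM in Tdrd6-/- and 5.29 FPKM in Tdrd6+/- cells over its transcripts. Ppp1cb, the beta subunit, was called higher, with 2.53 FPKM in Tdrd6-/- and 1.62 FPKM in Tdrd6+/- cells (0.61, 1.53-fold), just past the threshold. Summed over transcripts, Ppp1cc was 44.8 times as abundant as Ppp1ca in Tdrd6-/- cells and 39.1 times in Tdrd6+/- cells. It was 86.0 times as abundant as Ppp1cb in Tdrd6-/- and 128 times in Tdrd6+/- cells. The coding sequences of Ppp1cc and Ppp1ca are 77.5% identical and those of Ppp1cc and Ppp1cb 74.5%, and how reads common to related genes were shared out is not given in the sources used here.

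The regulatory PP1 subunits were listed with 42 transcripts from 27 genes, and 37 passed the filter, with a median log2 ratio of 0.06. Of these, 3 were called higher (8.11%) and 2 lower (5.41%), against 7.96% and 8.78% of all transcripts. Ppp1r13b, which encodes the p53 partner ASPP1, had the highest ratio of these, with 8.31 FPKM in Tdrd6-/- and 4.61 FPKM in Tdrd6+/- cells (log2 ratio 0.84, 1.79-fold), from an 18-exon transcript at chr12:113066668-113110826 on the minus strand. Ppp1r26, a nuclear PP1-binding protein, had 5.01 FPKM in Tdrd6-/- and 2.81 FPKM in Tdrd6+/- cells (0.81). Ppp1r12a, which targets PP1 to myosin (MYPT1), had a transcript at 3.13 against 2.01 FPKM in Tdrd6-/- and Tdrd6+/- cells (0.61) and another at 3.19 against 2.23 FPKM (0.50), so they lie on opposite sides of the threshold with near ratios.
Among those called lower, a transcript of Ppp1r12b, the related MYPT2, had 1.23 FPKM in Tdrd6-/- and 1.94 FPKM in Tdrd6+/- cells (log2 ratio -0.62), while the other Ppp1r12b transcript past the filter had 1.70 and 1.32 FPKM (0.35). Ppp1r18, the actin-binding protein phostensin, had a transcript at 1.95 against 3.02 FPKM (-0.61) in Tdrd6-/- and Tdrd6+/- cells and another at 1.67 against 1.54 FPKM (0.11). Both genes therefore have listed transcripts on either side of 0 at levels under 4 FPKM.
The testis members of this group were within 1.5-fold. Ppp1r2, inhibitor 2, summed to 128 FPKM in Tdrd6-/- and 116 FPKM in Tdrd6+/- cells. The pair of Ppp1r42 transcripts, from the gene of a leucine-rich repeat protein of testis, had 7.11 and 8.04 FPKM in Tdrd6-/- cells, against 5.59 and 6.99 FPKM in Tdrd6+/- cells.

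Calcineurin is built from a catalytic and a calcium-binding regulatory subunit, and no transcript of its 5 genes was called among 8 past the filter (median log2 ratio 0.20). Their summed level was 427.8 FPKM in each genotype. The regulatory subunits are shown by their last 30 coding bases, stop codon in capitals, because the germ-cell gene ends differently from its widely expressed relative. They come from mm9 chr4:49694029-49694058 on the minus strand for Ppp3r2 (coding length 540 nt) and chr11:17098280-17098309 on the plus strand for Ppp3r1 (513 nt).
Ppp3r2: gaacacggtcaagaagacttaaaagctTAA
Ppp3r1: atccacaaaaagatggtggtggatgtgTGA
Over 513 aligned coding bases the genes are 72.9% identical. Ppp3r2 had 281 FPKM in Tdrd6-/- and 297 FPKM in Tdrd6+/- cells (log2 ratio -0.08), and Ppp3r1 had 2.44 and 2.04 FPKM (0.25). The ratio of Ppp3r2 to Ppp3r1 was 115 in Tdrd6-/- and 146 in Tdrd6+/- cells. Ppp3r2 has a 3' UTR of 2410 nt in the annotation and stands in the long table, and it lay on the lower side in Tdrd6-/- cells. In Ppp3r1, 16.2% of the exon bases overlap exons of Wdr92 on the same strand, and whether reads of that gene enter its value was not tested.
For the catalytic subunit, Ppp3cc summed to 101 FPKM in Tdrd6-/- and 88.1 FPKM in Tdrd6+/- cells, nearly all from ENSMUST00000078434 (100.1 and 87.5 FPKM, log2 ratio 0.19). Ppp3ca summed to 33.4 FPKM in Tdrd6-/- and 33.2 FPKM in Tdrd6+/- cells and Ppp3cb to 10.2 and 7.56 FPKM. Ppp3cc was thus 3.02 times as abundant as Ppp3ca in Tdrd6-/- and 2.65 times in Tdrd6+/- cells when transcripts are summed, and 6.63 and 5.11 times when the most abundant transcript of each gene is taken.

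**Figure D2:**
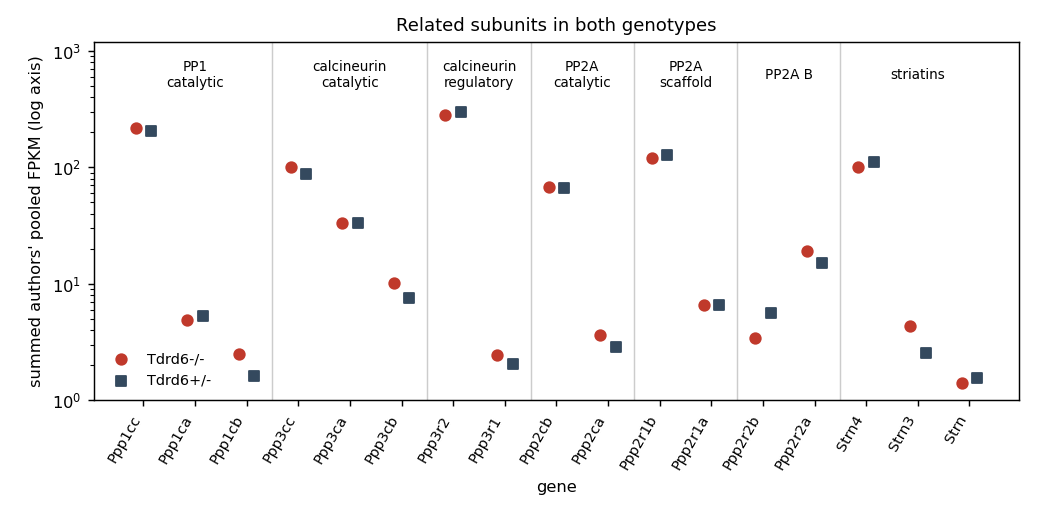
Pooled FPKM summed over the listed transcripts of 17 related subunits (y axis, log), with Tdrd6-/- as red circles on the left and Tdrd6+/- as dark squares on the right of each gene. Ppp1cc (217 and 207 FPKM) and Ppp3r2 (281 and 297 FPKM) lie far above their widely expressed relatives in both genotypes, while Ppp2r2b lies below Ppp2r2a.

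PP2A is a trimer of a catalytic, a scaffold and a B subunit. The catalytic and scaffold genes gave 8 transcripts past the filter, with 1 called lower and none higher. Ppp2cb, the beta catalytic subunit, had 67.5 FPKM in Tdrd6-/- and 66.6 FPKM in Tdrd6+/- cells (log2 ratio 0.02), and Ppp2ca, the alpha subunit, had 3.64 and 2.85 FPKM (0.34). Their coding sequences are 81.7% identical, the closest of the 10 gene pairs compared, and 42.0% of the exon bases of Ppp2ca overlap a gene on the opposite strand. Ppp2r1b, the beta scaffold, summed to 120.0 FPKM in Tdrd6-/- and 128 FPKM in Tdrd6+/- cells over 7 transcripts, against 6.53 and 6.59 FPKM for the alpha scaffold Ppp2r1a. Its main transcript, ENSMUST00000174628, had 80.9 and 79.0 FPKM in Tdrd6-/- and Tdrd6+/- cells, and ENSMUST00000176798 was called lower with 24.2 against 36.6 FPKM (-0.59), just past the threshold.
The B subunits and Ppp2r4, the PP2A activator grouped with them by name, had 16 transcripts past the filter from 9 genes. Of these 4 were called lower (25.0%, against 8.78% of all transcripts) and none higher, and the median log2 ratio was 0.02. Of the 4 called lower, 1 had under 1 FPKM in Tdrd6-/- cells and passed the filter only through its Tdrd6+/- value. Of the 10 with a mean of at least 5 FPKM, 1 was called lower, and the median was 0.14. All transcripts at that minimum had 8.07% called lower and a median of -0.06. Ppp2r5c had a transcript short of the threshold, at 75.5 FPKM in Tdrd6-/- and 51.5 FPKM in Tdrd6+/- cells (log2 ratio 0.55). Its other transcript, under the filter, had 1.10 and 0.683 FPKM (0.61). Both Ppp2r2b transcripts were called lower, with 2.05 and 1.37 FPKM in Tdrd6-/- cells, against 3.15 and 2.49 FPKM in Tdrd6+/- cells. The gene makes the B55 beta subunit, known from brain, and its relative Ppp2r2a (B55 alpha) summed to 19.2 FPKM in Tdrd6-/- and 15.1 FPKM in Tdrd6+/- cells. The ratio of Ppp2r2b to Ppp2r2a was 0.178 in Tdrd6-/- and 0.372 in Tdrd6+/- cells, or 0.110 and 0.211 by the most abundant transcript of each gene.
Ppp2r5a (B56 alpha) had a transcript at 0.857 FPKM in Tdrd6-/- and 2.04 FPKM in Tdrd6+/- cells (log2 ratio -1.16) and another, under the filter, at 1.16 and 0.757 FPKM, so that its transcripts lay on either side of 0. Ppp2r5d (B56 delta) had an abundant transcript among those called lower. ENSMUST00000075149, 959 nt at chr17:46819941-46821655, had 65.4 FPKM in Tdrd6-/- and 105 FPKM in Tdrd6+/- cells (-0.69). A longer transcript of 15 exons had 3.92 and 3.25 FPKM (0.26). The 959-nt transcript lies at the 3' end of the gene, and 11.9% of its exon bases overlap exons of Mea1 on the opposite strand. Mea1, looked up after this overlap was seen, had 982 FPKM in Tdrd6-/- and 1548 FPKM in Tdrd6+/- cells (-0.66). The part of Mea1 reads in the Ppp2r5d value was not tested, and whether strand was used in the estimates is not given in the sources used here.

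Striatins are scaffold subunits of PP2A in the STRIPAK complex, which joins the phosphatase to kinases. Of 6 listed transcripts 4 passed the filter, and 1 was called higher (25%, against 7.96% of all transcripts). Strn3 has a pair of transcripts of the same 5' and 3' ends on the minus strand of chromosome 12, at chr12:52709528-52792901, both with a 3' UTR of 1562 nt. ENSMUST00000013130 has 252 more coding bases in the middle. The 30 coding bases around the point where they part are shown, with capitals from the first base that differs. Each run crosses a splice junction, between chr12:52744187-52748995 in the longer and chr12:52730480-52748995 in the shorter transcript.
Strn3 ENSMUST00000013130: atggtacagaatgggATAAAGATGACCTCT
Strn3 ENSMUST00000169503: atggtacagaatgggCTGAACCAATAACGT
The longer transcript had 3.09 FPKM in Tdrd6-/- and 1.20 FPKM in Tdrd6+/- cells (log2 ratio 1.29, 2.45-fold), and the shorter had 1.23 and 1.36 FPKM (-0.13). Summed, Strn3 had 4.32 FPKM in Tdrd6-/- and 2.56 FPKM in Tdrd6+/- cells (1.66-fold). Strn4 is the abundant striatin in these cells, with 101 FPKM in Tdrd6-/- and 110.5 FPKM in Tdrd6+/- cells, and Strn summed to 1.42 and 1.54 FPKM with neither transcript past the filter.

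The genes of PP4, PP5 and PP6 gave 15 transcripts, all past the filter, with 1 called higher (6.67%, against 7.96% of all) and none lower. This was Ppp4r1, a regulatory subunit of PP4, which had the highest ratio of the 140 phosphatase transcripts past the filter. ENSMUST00000073104 had 7.98 FPKM in Tdrd6-/- and 2.73 FPKM in Tdrd6+/- cells (log2 ratio 1.51, 2.85-fold). The other long transcript, ENSMUST00000160664, lacks 51 coding bases near the start and had 35.1 and 40.0 FPKM (-0.19). A fragment of 299 nt from the 3' part of the gene had 50.9 and 53.0 FPKM (-0.06). The coding bases around the point where the long transcripts part are shown in the same way, on the plus strand across splice junctions between chr17:66132994-66152514 and chr17:66132994-66152565.
Ppp4r1 ENSMUST00000073104: aggacgcggacggacTTGATGTGGATGACT
Ppp4r1 ENSMUST00000160664: aggacgcggacggacCCCTGGACTTCGTCT
Over the gene, the summed FPKM was 94.0 in Tdrd6-/- and 95.7 in Tdrd6+/- cells, so the gene as a whole was within 1.5-fold. These long transcripts share most of their coding bases, and how far the estimate can divide reads between them was not tested.

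**Figure D3:**
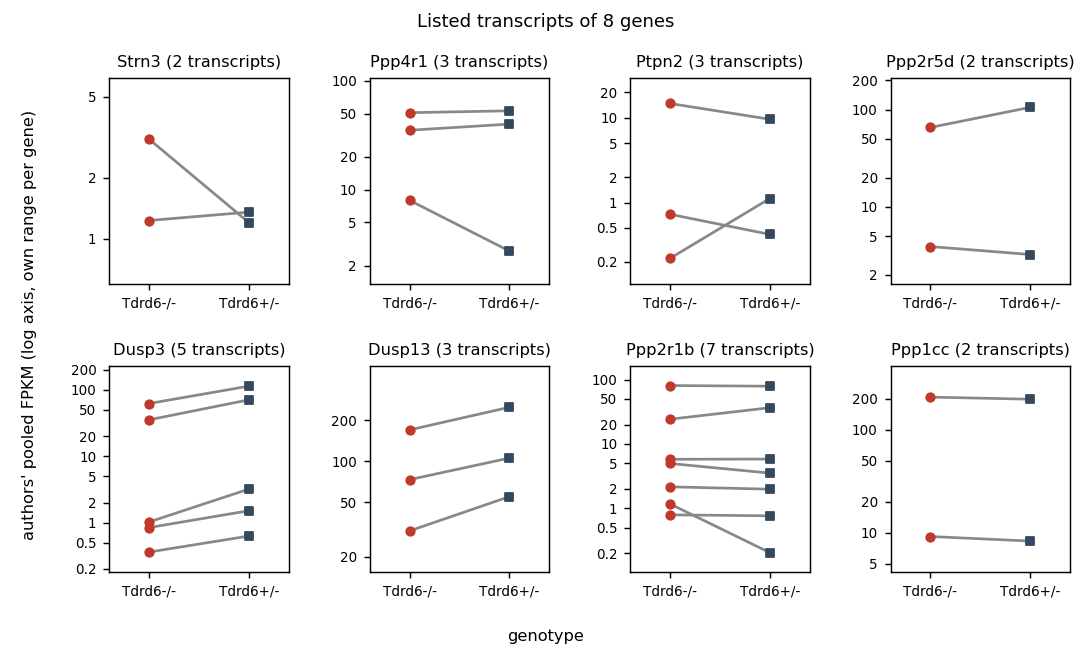
Pooled FPKM of every listed transcript of 8 phosphatase genes (y axis, log, own range per gene), with Tdrd6-/- as red circles on the left joined to Tdrd6+/- as dark squares on the right. All 5 Dusp3 and all 3 Dusp13 lines go the same way, while the lines of Strn3, Ppp4r1, Ptpn2 and Ppp2r1b do not.

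Of the metal-dependent phosphatases, 14 of 17 listed transcripts passed the filter (median log2 ratio 0.01). Of these, 2 were called lower (14.3%, against 8.78% of all transcripts) and none higher. Ppm1f, which acts on calmodulin-dependent kinases and on PAK kinases, had 1.31 FPKM in Tdrd6-/- and 3.62 FPKM in Tdrd6+/- cells (-1.40, 2.64-fold lower). It is a single listed transcript of 8 exons at chr16:16896562-16927457 on the plus strand, with a 3' UTR of 3342 nt. Among the 36 phosphatase transcripts of the long table past the filter it was 1 of 2 called lower (5.56%, against 2.95% of all in that table). Ppm1n had 2.07 FPKM in Tdrd6-/- and 3.22 FPKM in Tdrd6+/- cells (-0.61).

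Of the tyrosine phosphatases, 9 of 16 transcripts passed the filter, with a median log2 ratio of 0.35. Of these, 2 were called higher (22.2%, against 7.96% of all transcripts) and none lower. With a pseudocount of 1 none of the 9 was called higher, against 4.46% of all transcripts. No PTPN gene was called on summed FPKM. Of the 9, 7 were longer than 3000 nt, and all transcripts of that length had a median of 0.23 and 13.4% called higher. Ptpn2, which acts on JAK kinases and their STAT targets, had a transcript at 14.8 FPKM in Tdrd6-/- and 9.62 FPKM in Tdrd6+/- cells (0.61) and 2 more under the filter. One of these had 0.219 FPKM in Tdrd6-/- and 1.12 FPKM in Tdrd6+/- cells, and the gene summed to 15.7 and 11.2 FPKM (0.49), short of the threshold. A transcript of Ptpn21, a phosphatase with a FERM domain, had 1.61 and 1.00 FPKM (0.63), and a second one with the same 3' UTR had 0.531 and 0.606 FPKM. Ptpn20, a testis member, had 30.3 FPKM in Tdrd6-/- and 21.9 FPKM in Tdrd6+/- cells (0.47) and was not called.

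The dual-specificity phosphatases stood on the lower side. Of 28 listed transcripts from 17 genes, 25 passed the filter, 8 of them from 5 genes were called lower (32%, against 8.78% of all transcripts) and none higher, and the median log2 ratio was -0.39. Of these 8, 3 had under 1 FPKM in Tdrd6-/- cells and passed the filter only through their Tdrd6+/- value. Of the 17 DUSP transcripts with a mean of at least 5 FPKM, 4 were called lower and the median was -0.34. All 8560 transcripts at that minimum had 8.07% called lower and a median of -0.06. In 21 of the 25 the ratio was below 0, against 7439 of all 14887 transcripts past the filter. Of all transcripts of up to 1500 nt, the size of 10 of the DUSP transcripts, 3313 of 4372 lay below 0. For 13 of the 17 DUSP genes every listed transcript was lower in Tdrd6-/- cells, and the share of all genes for which this holds was not counted. The FPKM of the DUSP transcripts summed to 549.5 in Tdrd6-/- and 815.5 in Tdrd6+/- cells. This was not tested, and the 8 calls share genes, so they are not independent.
Dusp3 (VHR), which acts on ERK and JNK kinases, accounted for 4 of the 8. Its 2 abundant transcripts had 62.5 and 35.5 FPKM in Tdrd6-/- cells, against 114 and 71.0 FPKM in Tdrd6+/- cells (log2 ratios -0.87 and -0.9997). The other 3 had 1.02, 0.842 and 0.360 FPKM in Tdrd6-/- cells, against 3.20, 1.51 and 0.627 FPKM in Tdrd6+/- cells, and the last of these was under the filter. All 5 lay on the lower side, the summed level was 100.2 FPKM in Tdrd6-/- and 190.5 FPKM in Tdrd6+/- cells (1.90-fold lower). The 3 transcripts of the short table had log2 ratios between -1.56 and -0.87. No coding length was found for them, and whether they encode the phosphatase was not tested. The pair in the long table, with a 3' UTR of 3591 nt, had -0.77 and -0.66.
Dusp13, which encodes a testis and muscle phosphatase, had 169.5, 73.3 and 30.8 FPKM in Tdrd6-/- cells, against 248, 105 and 55.0 FPKM in Tdrd6+/- cells. The last was called lower (log2 ratio -0.83), and the others were short of the threshold (-0.55 and -0.52). Those at 73.3 and 30.8 FPKM have the same coding sequence of 597 nt, and the most abundant has 195 more coding bases after the start codon. Dusp21, an intronless X-linked gene expressed in testis, at chrX:17722996-17723816 on the plus strand, had 12.2 FPKM in Tdrd6-/- and 23.98 FPKM in Tdrd6+/- cells (-0.97).
Low members were also called. Dusp2, which acts on ERK and p38 in the nucleus, had 0.797 FPKM in Tdrd6-/- and 1.64 FPKM in Tdrd6+/- cells (log2 ratio -0.96), and Dusp12 had 0.796 and 1.25 FPKM (-0.59). In Dusp12, 22.5% of the exon bases overlap a gene on the opposite strand. The testis member Dusp15 had 46.0 and 14.1 FPKM in Tdrd6-/- cells, against 58.3 and 17.7 FPKM in Tdrd6+/- cells (-0.34 and -0.33), within 1.5-fold for both transcripts.

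**Figure D4:**
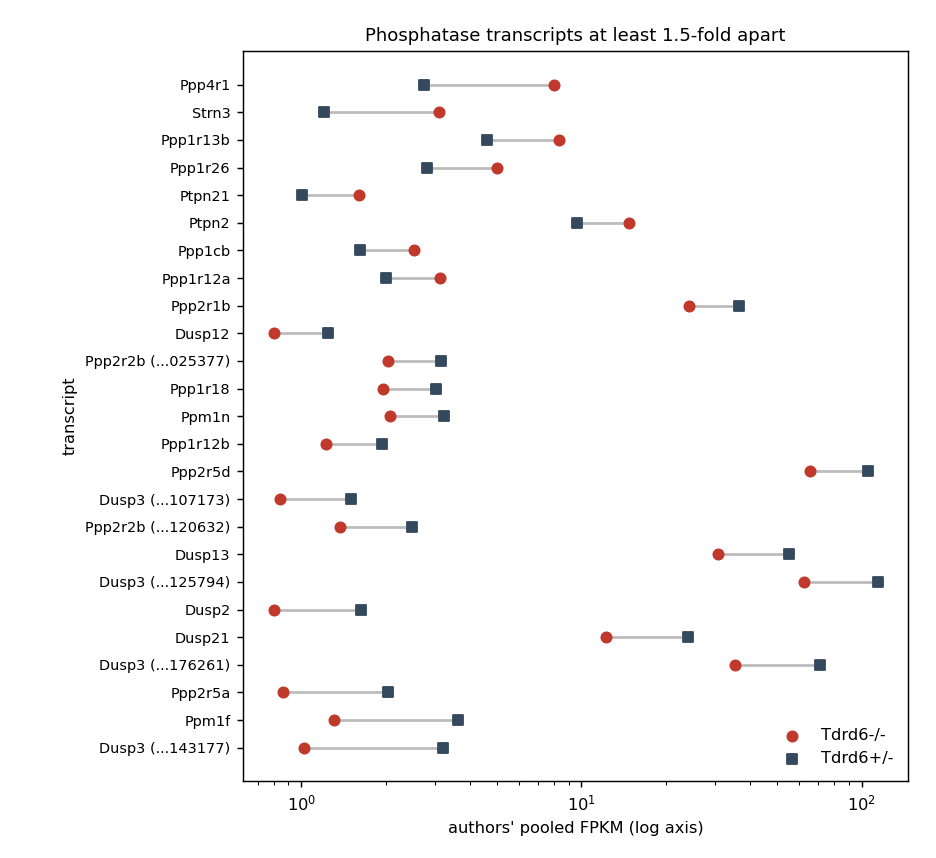
Pooled FPKM (x axis, log) of the 25 phosphatase transcripts at least 1.5-fold apart, ordered by ratio from the most higher at the top to the most lower at the bottom, with Tdrd6-/- as red circles and Tdrd6+/- as dark squares. Ppp4r1 (7.98 and 2.73 FPKM) is at the top and a low Dusp3 transcript (1.02 and 3.20 FPKM) at the bottom.

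The ratio moved with the 3' UTR class and with the length of the whole transcript, in phosphatase transcripts as in all transcripts. Median log2 ratios of the phosphatase transcripts were -0.07 in the short table (44 transcripts, 3' UTR up to about 350 nt), -0.05 in the medium table (52) and 0.19 in the long table (36, over 1500 nt). All transcripts of these tables had medians of -0.17, 0.03 and 0.20. Among transcripts with a mean of at least 5 FPKM, the phosphatase medians were -0.18, 0.02 and 0.09 in the short, medium and long tables, and those of all transcripts -0.21, 0.00 and 0.17. Among long ones, 4 of the 36 phosphatase transcripts were called higher (11.1%) and 2 lower (5.56%), against 9.55% and 2.95% of all in that table. Among short ones, 1 was called higher (2.27%) and 7 lower (15.9%), against 6.83% and 14.7% of all. Among medium ones, 1 of 52 was called higher (1.92%) and 7 lower (13.5%), against 8.04% and 5.94% of all. These counts are small and were not tested.
By whole length, phosphatase transcripts of up to 1500 nt had a median of -0.18, those over 1500 to 3000 nt -0.06 and those over 3000 nt 0.18, against -0.26, -0.01 and 0.23 for all transcripts. With a mean of at least 5 FPKM the phosphatase transcripts of up to 1500 nt had a median of -0.30, against -0.29 for all. DUSP transcripts lay below both medians in each of these length groups, at -0.53 for 10 transcripts of up to 1500 nt, -0.15 for 7 of middle length and 0.14 for 5 longer ones. The 3 Dusp3 transcripts for which no length was read, all called lower, are left out here. Those at 62.5 and 1.02 FPKM in Tdrd6-/- cells have annotated exons (3 and 2). After the median of all transcripts of the same length group was subtracted, which was added once the length trend had been seen, the median of the 22 DUSP transcripts with a length was -0.21 and 3 were called lower. Before centring, the same 22 had a median of -0.33 and 5 called lower. Of all transcripts with a length, 7.05% were called lower after this centring and 8.75% without it.

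**Figure D5:**
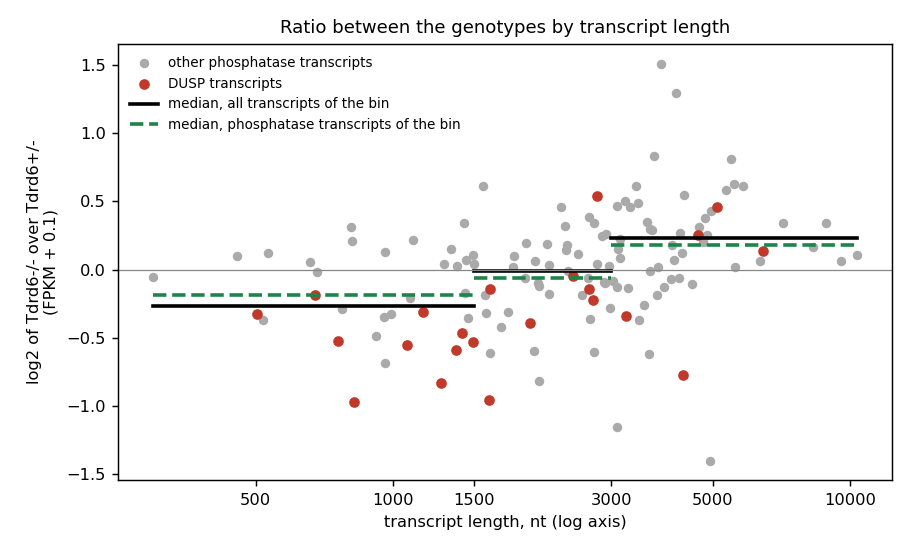
Log2 ratio of Tdrd6-/- over Tdrd6+/- FPKM (y axis) against transcript length in nt (x axis, log) for phosphatase transcripts past the filter that have a length, with DUSP transcripts in red and others in grey. Black lines are medians of all transcripts in 3 length groups (-0.26, -0.01 and 0.23) and green dashed lines those of the phosphatase transcripts (-0.18, -0.06 and 0.18).

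At the level of genes, the FPKM of all listed transcripts of a gene was summed. Of 95 phosphatase genes with a mean sum of at least 1, 4 were called higher, namely Ppp1cb, Ppp1r13b, Ppp1r26 and Strn3. Another 8 were called lower, namely Dusp2, Dusp3, Dusp12, Dusp21, Ppm1f, Ppm1n, Ppp2r2b and Ppp2r5d. This is 4.21% higher and 8.42% lower, against 4.53% and 6.62% of 10482 genes. Dusp2 and Dusp12 had 0.797 and 0.796 FPKM in Tdrd6-/- cells. The Ppp2r5d sums were 69.4 FPKM in Tdrd6-/- and 108.5 FPKM in Tdrd6+/- cells. Of these, 65.4 and 105 FPKM were those of the 959-nt transcript that overlaps Mea1, and the longer transcript lay on the higher side. Calls on single transcripts were less uniform, since 45 of the 102 genes have more than 1 listed transcript, and in 22 of these 45 the transcripts lay on both sides of 0. Of the 8 transcripts called higher 5, and of the 17 called lower 10, have another listed transcript of the gene that was not called that way.

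The partners of these enzymes were taken from lists outside the name rule. Among 38 transcripts of PP1 partners past the filter 1 was called higher and 4 lower (median log2 ratio 0.12), and among 28 of PP2A and STRIPAK partners 3 were called higher and 2 lower (0.18). Calcineurin partners had none higher and 2 lower of 19 (0.05). Of 13 transcripts of MAP kinases, the substrates of many dual-specificity phosphatases, 3 were called higher (23.1%, against 7.96% of all) and none lower. The ratio was above 0 in 10 of the 13, with a median of 0.27. Mapk6, Mapk8 and Mapk10, the genes of these 3 calls, each have another listed transcript that was not called. The FPKM of all 19 listed MAP kinase transcripts summed to 205.4 in Tdrd6-/- and 205.3 in Tdrd6+/- cells. Protein phosphatases of other gene families had 4 higher and 4 lower of 45 (0.06, 8.89% each way), near the 7.96% and 8.78% of all transcripts.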

How the data were processed

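RNA of 4 Tdrd6-/- and 4 Tdrd6+/- samples was sequenced as single-end reads, with 33000000 reads per sample on average in the series' design text. The labels describe poly-dT selection and the methods removal of ribosomal RNA. Reads were aligned to mm9 with TopHat2 2.0.9 over Bowtie2 2.10, and transcripts were quantified with Cufflinks 2.1.1 and compared by Cuffdiff, going by the submitters' processing notes. The authors deposited 3 tables by 3' UTR length with 1 FPKM per transcript and genotype, in which Cuffdiff combined the 4 libraries, so the reads behind each value are not given and transcripts of a gene are estimates from shared reads. The tables also hold the authors' own fold changes, test statistics, p-values and q-values, which were not used.

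Each transcript identifier was used once (10 of the 171 members stand in more than 1 table, with the same values). Log2 ratios used a pseudocount of 0.1, calls a fold of 1.5 and a mean FPKM of at least 1. Lengths, exons and short coding sequences came by identifier from GENCODE M1, a different annotation release of the same build, and 161 of 171 members had a length. Coding sequences were aligned with Biopython 1.88, with tables made in pandas 2.3.3 and Python 3.11.15. The calling was tested on simulated data. Named are all called transcripts, the members of 10 related pairs, the 10 most abundant, a list of testis forms, and Ppp2r5c. Members, families, lists and pairs were chosen with earlier results of these data known.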

Additional observations from a re-analysis of the deposited data

How the results depend on the processing

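Counts over the phosphatase transcripts depend on the filter and the fold. Main counts were 8 higher and 17 lower. With a pseudocount of 1 they were 4 and 8, with a minimum of 5 FPKM they were 3 and 6, at 2-fold they were 2 and 3, and with FPKM summed by gene they were 4 and 8. Centred within length groups they were 5 and 11 among 134 transcripts with a length, which had 8 and 13 before centring. Without a filter on low values 17 were higher and 24 lower, and with 1 transcript per gene 6 were higher and 11 lower. The share called higher exceeded that of all transcripts only with 1 transcript per gene (6.45% against 5.41%). It lay below in the other settings, such as no filter (9.94% against 10.4%) and sums by gene (4.21% against 4.53%). The share called lower lay above that of all transcripts or genes without a filter (14% against 10.4%), with a pseudocount of 0.01 (12.1% against 9.10%), without transcripts of several tables (12.1% against 8.89%), with 1 transcript per gene (11.8% against 7.30%), over transcripts with a length (9.70% against 8.75%), with sums by gene (8.42% against 6.62%) and centred within length groups (8.21% against 7.05%), and below it with a pseudocount of 1 (5.71% against 6.16%), a minimum of 5 FPKM (6.45% against 8.07%) and 2-fold (2.14% against 2.42%). The settings with a share above the background all kept low values and share calls with the main setting, so they are not independent. Of the 17 main calls, 4 had under 1 FPKM in Tdrd6-/- cells. The pseudocount of 1 and the minimum of 5 FPKM, which damp or drop low values, both put the share below the background. DUSP transcripts called lower numbered 5 of 25 with a pseudocount of 1. They numbered 4 of 17 under the higher minimum of 5 FPKM, in place of 8 of 25 in the main setting. All transcripts had 6.16%, 8.07% and 8.78% called lower in these settings. Of the 25 called transcripts 12 were also called with a pseudocount of 1, and none changed sign. Centring on the median of all transcripts changed no call of these 25. The sums by gene, the restriction to transcripts with a length and the centring within length groups were chosen after seeing the data. No paired analysis was possible because each genotype has 1 pooled value, and for the same reason no library could be left out. Precision is limited by the pooling, since the reads behind each value are not given.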
